A study of Mus musculus with 4 samples.

Results

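Gene expression was compared between 2 hashtagged cultures of mouse T-cell progenitors, called tag 5 and tag 7, in the second of 2 pooled single-cell experiments. A hashtag is a short DNA barcode on an antibody that marks the culture of origin of each cell in a pool. The 8 hashtag columns of experiment 2 were numbered in file order, and a cell was given to a tag when its highest hashtag count was at least 50 and at least 3 times the second. Tag 5 held 988 cells and tag 7 held 1017, together 2005 of the 8335 cells of experiment 2 with 1 clear tag and of 17132 such cells in the series. The pair was selected on gene levels already known from these same cells, as a possible difference in culture time. The differences below are therefore a description, with 1 culture a side and no test.

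All cultures started from bone marrow progenitors of Bcl2 transgenic mice (B6.Bcl2, or B6.Cas9;Bcl2 for the knockouts), aged 8 to 10 weeks. They were grown on OP9-Dll1 stromal cells with 10 ng/ml of IL-7 and of Flt3-ligand, and retroviral vectors were added on day 2. The overexpression cultures carried MSCV-Runx1-mCherry or MSCV-empty-mCherry and were harvested on day 4 or 6. The knockout cultures carried E42-gRunx1-hNGFR with E42-gRunx3-mTurquoise, using 3 guide pairs per gene, or luciferase control guides in the same vectors, and were harvested on day 5 or 8. Sorted cells were alive, lineage-negative and CD45+, and carried mCherry, or mTurquoise and hNGFR. The labels call them Phase1 (cKit high) T progenitors and give 4 to 8 days of culture for experiment 2. No label ties a hashtag to a vector, a guide or a day. Culture time, vector, mouse strain and the single culture itself therefore cannot be told apart as sources of any difference between tag 5 and tag 7. Every culture carried the Bcl2 transgene. Counts of Bcl2 and Runx1 do not separate the mouse gene from the transgene or vector.

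The barcodes that separated the cultures were 15 bases long, all of them shown in capitals because every base identifies the tag.
tag 5: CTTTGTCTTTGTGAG
tag 7: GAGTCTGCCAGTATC
In tag 5 cells the median count was 292.5 for their own tag and 2 for tag 7. In tag 7 cells it was 197 for their own tag and 2 for tag 5. This gap follows in part from the rule that gave cells to a tag, so it does not measure how cleanly the cultures were separated.

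T-cell progenitors that enter the thymus lose access to other blood lineages step by step under Notch signalling. The earliest stages carry Kit and stem-cell regulators such as Spi1, which encodes the myeloid and lymphoid factor PU.1. Cells then gain Il2ra (CD25), and commitment to the T lineage comes with Bcl11b, after which genes of the T-cell receptor machinery rise further. OP9-Dll1 culture with IL-7 and Flt3-ligand is used to run these steps outside the animal.

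Tag 7 had the higher levels of most T-lineage genes, and tag 5 the higher levels of progenitor, myeloid, major histocompatibility complex (MHC) class II and interferon-response genes. UMIs (unique molecular identifiers, which count captured transcripts) were summed over the cells of a tag and scaled to a total of 1000000 per tag (CPM). Intervals are exact 95% intervals and cover counting error only, since UMIs of 1 culture say nothing of the spread between cultures. Those of CPM and ratios take UMIs as independent and leave out the spread between cells as well. They are thus too narrow, most of all for genes held by few cells. A floor of 10 CPM on the mean over the 8 tags kept 7084 genes, of which 277 (3.91%) were at least 2-fold higher in tag 5 and 109 (1.54%) at least 2-fold lower. Together that is 5.45% of the genes, and 6698 genes (94.6%) lay within 2-fold. The median log2 ratio of tag 5 to tag 7 over all 7084 genes was 0.03. For 224 of the higher and 88 of the lower genes the whole interval lay past 2-fold. A ratio of at least 4 was reached by 80 genes higher in tag 5 and by 23 lower.

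**Figure D1:**
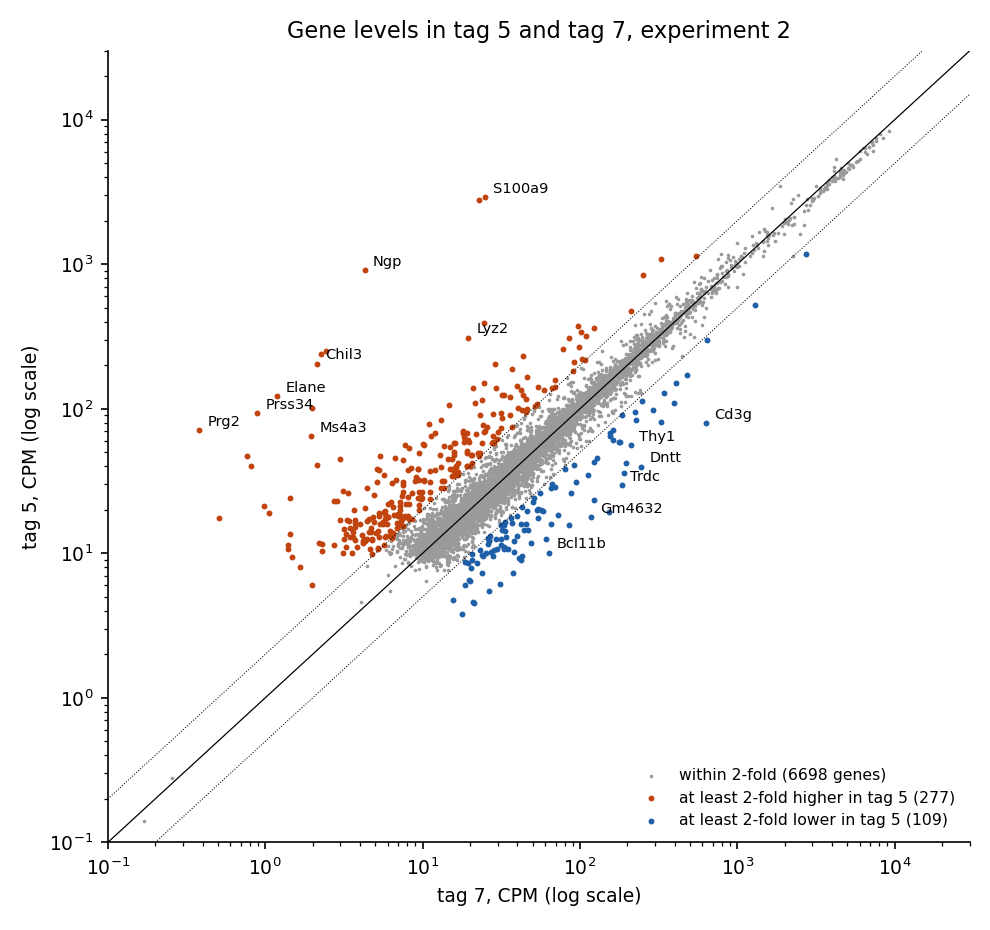
Level of each of 7084 genes in tag 7 (horizontal, CPM on a log scale) and tag 5 (vertical, CPM on a log scale), 1 point a gene. Solid line, equal levels; dotted lines, 2-fold. The 277 genes higher in tag 5 reach far larger ratios, led by neutrophil genes, than the 109 lower, led by Cd3g, Bcl11b and Dntt.

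The tags were sequenced in 1 droplet library and differed in depth. Tag 5 had a median of 27474.5 UMIs and 4628 genes per cell against 21907 UMIs and 4152 genes in tag 7, with 3.64% and 3.99% mitochondrial UMIs. Summed UMIs were 28586057 in tag 5 and 23531058 in tag 7. When each cell was thinned to 5000 UMIs, 961 cells of tag 5 and 1000 of tag 7 remained, with 27 and 17 shallower cells left out, and the median was 1823 and 1797 genes. The medians of genes per cell were thus close at equal depth. Of 10214 cells that passed the filter in experiment 2, 1879 (18.4%) had no clear tag and were left out, and 39 cell barcodes also occurred in experiment 1.

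Genes of the T-cell receptor complex were lower in tag 5 than in tag 7. Of 19 genes listed, 12 passed the floor of 10 CPM, and 9 of these 12 were at least 2-fold lower in tag 5 and 0 higher, against 1.54% of all genes lower. Their median log2 ratio was -1.51, and the genes were Cd3g, Cd3d, Cd3e, Cd247, Lck, Lat, Thy1, Il2ra and Prkcq. Cd3g, a chain of the CD3 signalling complex, was at 20.9, 125, 64.9, 743, 79.2, 27.2, 633 and 112 CPM in tags 1 to 8. Tags 4 and 7 stood above the other 6 tags for this gene, and tag 5 was between tags 3 and 8. The level of Cd3g in tag 7 was 7.99 times that in tag 5 (interval 7.64 to 8.35). Cd3d, another CD3 chain, was at 3.53, 25.1, 32.6, 232, 19.3, 17.1, 152 and 48.6 CPM in tags 1 to 8, again highest in tags 4 and 7. Thy1, a surface glycoprotein of T-lineage cells, was at 31.0, 43.5, 58.3, 138, 56.4, 39.3, 210.5 and 163 CPM, with the 3 highest values in tags 7, 8 and 4. Il2ra, the CD25 chain of the interleukin 2 receptor, was at 63.3, 64.3, 176, 126, 129, 91.5, 341 and 251 CPM. For Il2ra the level in tag 7 was the highest of all tags and 2.65 times that in tag 5 (2.55 to 2.76). The adaptor and kinase genes did not all differ: Fyn, Lcp2 and the costimulatory receptor Cd27 lay within 2-fold.

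Transcription factors of the T lineage were also lower in tag 5. Of 13 listed factors 12 passed the floor, and 5 were at least 2-fold lower in tag 5 and 0 higher, with a median log2 ratio of -0.87. The 5 were Tcf7, Bcl11b, Lef1, Ets1 and Tox. Bcl11b, whose product marks commitment to the T lineage, was at 2.04, 15.6, 12.8, 128, 10.1, 4.75, 63.4 and 22.9 CPM in tags 1 to 8. Its level in tag 7 was second to tag 4 and 6.27 times that in tag 5 (5.53 to 7.14). Tcf7, which encodes the Notch-induced factor TCF1, was at 49.6, 179, 96.7, 206, 65.0, 28.2, 156 and 95.2 CPM. Tags 2, 4 and 7 were the 3 highest for Tcf7, and the ratio of tag 7 to tag 5 was 2.40 (2.27 to 2.54). Gata3, an early regulator of the T-cell fate, was at 33.0 CPM in tag 5 and 53.1 in tag 7, a ratio of 1.61 that stays within 2-fold.

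The genes of antigen receptor rearrangement and the receptor constant regions had the most negative median of the 26 lists examined, -1.85 on the log2 scale. Of 11 listed, 7 passed the floor and 6 were at least 2-fold lower in tag 5. These were Dntt, Trbc1, Trdc, Tcrg-C1, Tcrg-C2 and Tcrg-C4. Dntt, the enzyme that adds untemplated bases at receptor joins, was at 25.5, 14.0, 23.3, 63.9, 39.8, 69.1, 245 and 126 CPM in tags 1 to 8. Tags 7 and 8 were the 2 highest for Dntt, and tag 7 exceeded tag 5 by 6.16 times (5.78 to 6.57). Trdc, the delta-chain constant region, was at 16.3, 24.0, 47.8, 97.9, 29.8, 27.8, 185 and 128 CPM, so that tag 7 was 6.23 times tag 5 (5.78 to 6.71). The Tcrg constant genes share similar sequence, so counts could be divided among them, and their separate values are uncertain. Trbc2 was within 2-fold at 698 CPM in tag 5 and 996 in tag 7.

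The 15 genes named for the lowest ratio of tag 5 to tag 7 were, from the lowest ratio, Cd3g, Cd3d, Gm4632, Bcl11b, Trdc, Dntt, Tubb3, Akr1c12, Tcrg-C4, Trat1, Arpp21, Epcam, Akr1c13, Fam169b and Thy1. They were taken among genes of at least 50 CPM in the higher tag. The last one inside the rule, Thy1, had a ratio of tag 5 to tag 7 of 0.268, and the first one outside, Tcrg-C2, had 0.277. Several of the 15 are not known T-cell receptor genes. Akr1c13, an aldo-keto reductase, was at 80.8 CPM in tag 5 and 326 in tag 7, with 49.5, 45.0, 96.7, 77.7, 76.2 and 198 CPM in tags 1, 2, 3, 4, 6 and 8. Its paralog Akr1c12 was at 23.2 and 123 CPM in tags 5 and 7, and reads could be divided between these near-identical genes. Epcam, an epithelial adhesion molecule, was at 16.1 CPM in tag 5 and 65.5 in tag 7. These genes were seen in many cells: in tag 7, Akr1c13 had a UMI in 81.7% of cells and Epcam in 53.0%, against 50.3% and 15.9% in tag 5, at the unequal depths given above.

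**Figure D2:**
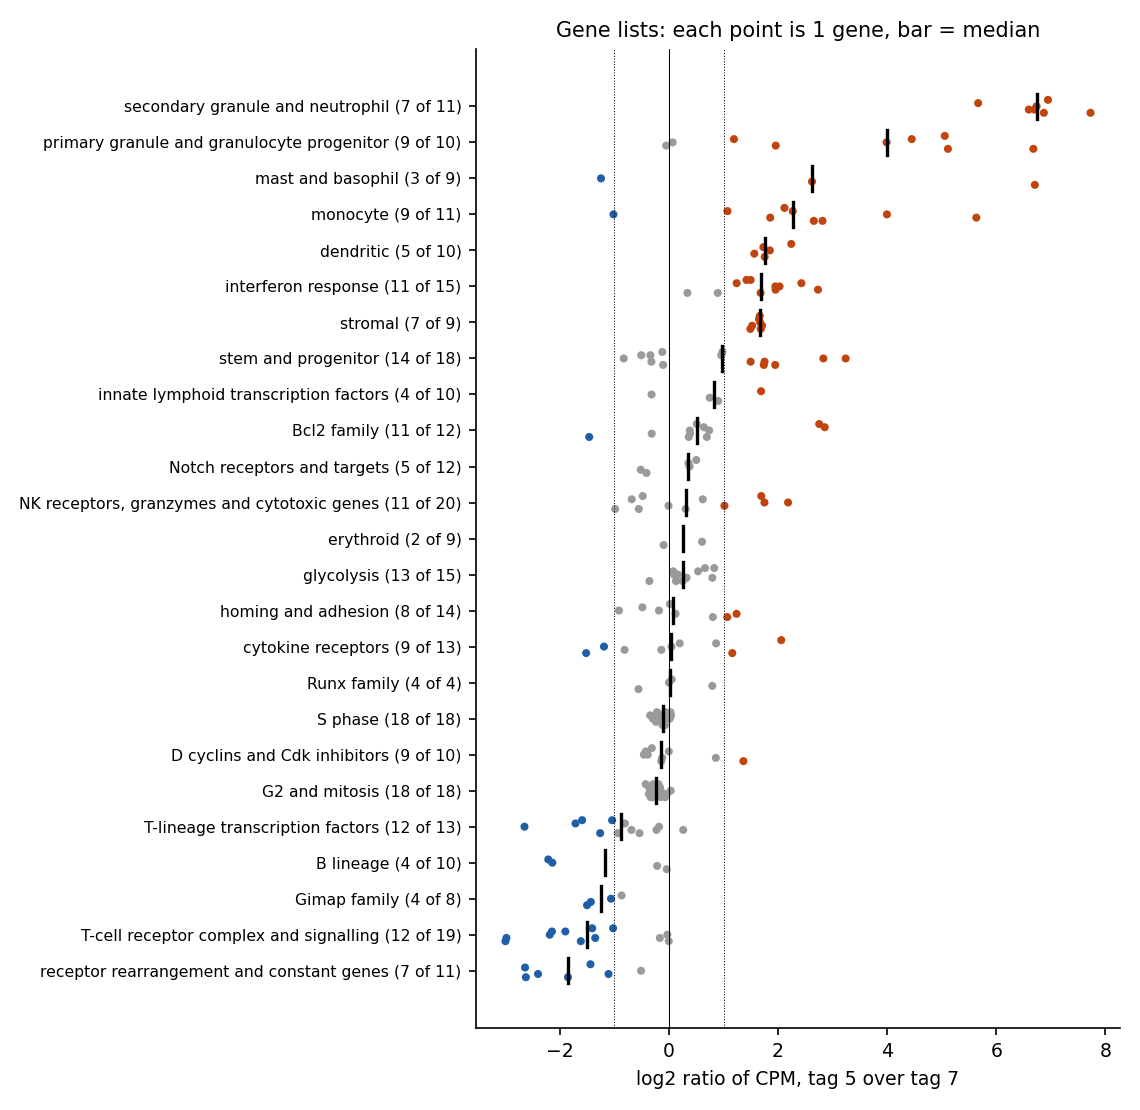
Log2 ratio of CPM in tag 5 over tag 7 for the genes of each list that passed the floor, 1 point a gene, with the median as a bar and the number that passed of the number listed in brackets (the mature T list, with 1 gene past the floor, is left out). Red, at least 2-fold higher in tag 5; blue, at least 2-fold lower. Medians run from -1.85 for receptor rearrangement to 6.74 for neutrophil granule genes.

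Genes of stem and early progenitor cells were higher in tag 5. Of 18 listed, 14 passed the floor, 6 were at least 2-fold higher in tag 5 against 3.91% of all genes, and 0 were lower. The median log2 ratio was 0.97, and the 6 were Cd34, Lmo2, Mef2c, Meis1, Hoxa9 and Spi1. Lmo2, a partner protein of stem-cell transcription complexes, was at 82.8, 47.4, 69.4, 30.4, 78.6, 124, 11.0 and 57.4 CPM in tags 1 to 8. Tag 7 was the lowest of the 8 tags for Lmo2, and tag 5 exceeded it by 7.11 times (6.25 to 8.12). Spi1 was at 255, 282, 185, 139, 261, 259, 78.2 and 166 CPM, with tag 7 again the lowest and tag 5 at 3.34 times its level (3.17 to 3.51). Cd34, a surface marker of progenitors, was at 169.8, 105, 126, 58.3, 121, 196, 36.0 and 167 CPM. Hoxa9, a homeobox gene of stem cells, was at 13.6 CPM in tag 5 and 1.44 in tag 7. Other progenitor genes did not share this difference. Kit, the stem-cell factor receptor in the labels' description of the cells, was at 31.8 CPM in tag 5 and 34.2 in tag 7, and the interval of their ratio (0.844 to 1.02) includes 1. Myb was at 136 CPM in tag 5 and 241 in tag 7, within 2-fold and in the other direction. Hhex and Bcl11a were just within 2-fold, at 1.97 and 1.95 times the tag 7 level.

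Levels over all cells do not say how many cells carried a gene, so shares of cells with a UMI were counted after thinning to 5000 UMIs. As a reference for free RNA in the droplets, the same share was taken in 501 thinned cells of experiment 2 with stromal markers, from 518 such cells with a median of 34381.5 UMIs before thinning. Of the 518, 187 had 1 clear tag and 331 did not, so the reference holds many droplets of the kind left out elsewhere, and it is no pure measure of free RNA. The share of Il2ra expected over all draws was 8.30% in the former and 5.00% in the latter. Il2ra had a UMI in 25.4% of tag 5 cells (22.7 to 28.3) and 68.0% of tag 7 cells (65.0 to 70.9), with 6.99% in the stromal-marker cells. Cd3g had a UMI in 9.99% of tag 5 cells and 47.4% of tag 7 cells, with 3.19% in the reference. Bcl11b was seen in 4.79% and 23.9% of cells, with 0.998% in the reference. Of 8 staging genes examined, 5 (Il2ra, Cd3g, Bcl11b, Tcf7 and Gata3) had a higher share in tag 7 with intervals that did not overlap. Kit had a UMI in 14.0% of tag 5 cells and 16.5% of tag 7 cells, with overlapping intervals. Flt3, the receptor for the Flt3-ligand in the medium, had a UMI in 22 of 961 tag 5 cells (2.29%) and 0 of 1000 tag 7 cells in the random draw used. Over 20 other draws at this depth its share ran from 1.46% to 2.81% in tag 5 and from 0.0% to 0.800% in tag 7. Without thinning, Flt3 had a UMI in 10.4% and 2.36% of cells, and Il2ra in 37.3% and 82.9%.

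Taking Kit and Il2ra together, 57.4% of tag 7 cells had an Il2ra UMI and no Kit UMI, against 20.9% of tag 5 cells. Cells with both were 10.6% of tag 7 and 4.47% of tag 5. Cells with Kit only were 5.90% of tag 7 and 9.57% of tag 5, and cells with neither were 26.1% and 65.0%. At 5000 UMIs a cell without a UMI may still express the gene, so these shares are not shares of cell stages.

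Genes of neutrophil granules had the largest ratios of tag 5 to tag 7. Of 11 genes of secondary granules and neutrophils, 7 passed the floor and all 7 were at least 2-fold higher in tag 5 (Ngp, Camp, Lcn2, Ltf, S100a8, S100a9 and Chil3), with a median log2 ratio of 6.74. S100a8, a calcium-binding protein abundant in neutrophils, was at 808, 649, 354, 529, 2802, 4736, 22.7 and 1966 CPM in tags 1 to 8. Tag 7 was the lowest of the 8 tags, and S100a8 in tag 5 was 123 times its level (113 to 135). Without the 5 highest cells of each tag, S100a8 was at 2169 CPM in tag 5 and 14.8 in tag 7. Ngp, a neutrophil granule protein, was at 223, 138, 128, 192, 910.1, 935, 4.29 and 335 CPM. Of 10 genes of primary granules and granulocyte progenitors, 9 passed and 7 were at least 2-fold higher in tag 5 (Elane, Mpo, Prtn3, Ctsg, Ms4a3, Cebpe and Igsf6), with a median log2 ratio of 3.99. Elane, neutrophil elastase, was at 71.5, 117, 22.7, 49.3, 122, 329.7, 1.19 and 42.2 CPM, again lowest in tag 7. The granule proteoglycan gene Srgn was at 679 CPM in tag 5 and 704 in tag 7.

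Transcripts of the neutrophil list sat mostly in few cells. Of tag 5 cells, 47 (4.76%, interval 3.52 to 6.28) drew at least 0.5% of their UMIs from the neutrophil list, against 1 of 1017 cells (0.0983%) in tag 7. The 47 cells of tag 5 drew a median of 25.7% of their UMIs from it. The primary granule list was past 0.5% in 36 cells of tag 5 and in 1 of tag 7. Without any cell past 0.5% for another lineage, a filter that removes cells by these same transcripts, S100a8 was at 15.3 CPM in tag 5 and 15.2 in tag 7, and Camp and Ltf had log2 ratios of -0.52 and -0.37. In those cells the primary granule list had a median log2 ratio of 0.51 with 4 genes at least 2-fold higher in tag 5, in place of 3.99 and 7. Its members differed there: Mpo, the gene of myeloperoxidase, was at 13.6 CPM in tag 5 and 16.2 in tag 7, while Prtn3, the gene of the protease proteinase 3, was at 266 and 25.1. Over all cells and without thinning, Prtn3 had a UMI in 49.2% of tag 5 cells and 15.1% of tag 7 cells.

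**Figure D3:**
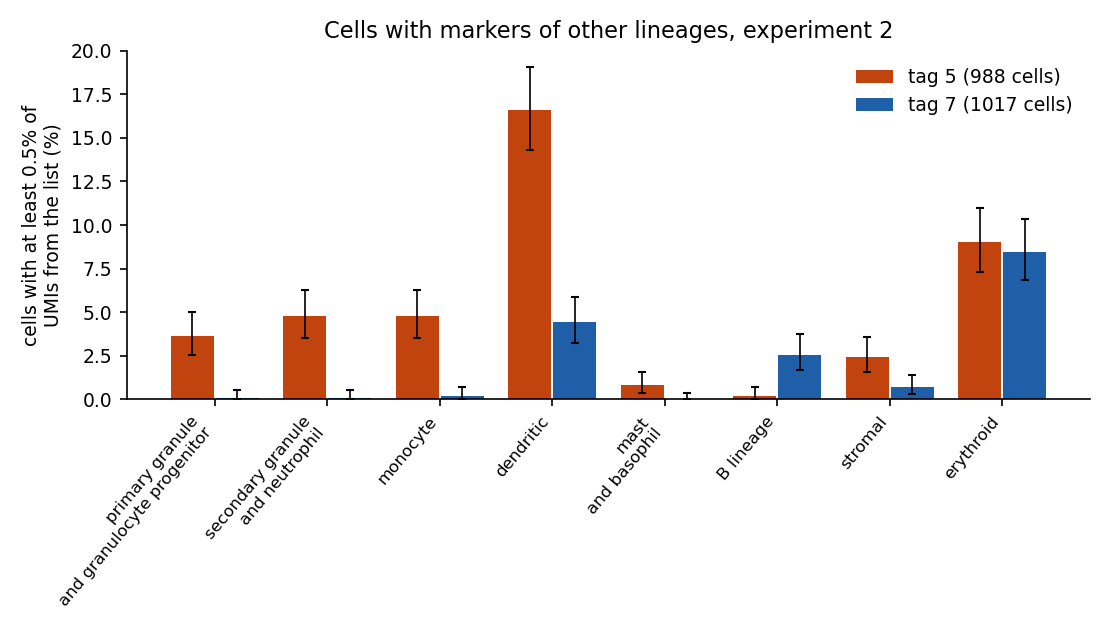
Share of cells (vertical, percent) that drew at least 0.5% of their UMIs from the marker list of another lineage, for 988 cells of tag 5 and 1017 of tag 7. Bars start at 0 and error bars are exact 95% intervals for counting error. Tag 5 is higher for the neutrophil, monocyte and dendritic lists, tag 7 for the B-lineage list, and the erythroid list is alike. A cell can count under several lists, and 30 of the 47 monocyte-list cells of tag 5 are also counted under the neutrophil list.

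Monocyte genes were higher in tag 5 as well. Of 11 listed 9 passed, 8 were at least 2-fold higher (Csf1r, Ly6c2, Lyz2, Ccr2, Fcgr3, Ms4a6c, Irf8 and Ctss), and 1, the Krüppel-like factor Klf4, was at least 2-fold lower. The median log2 ratio was 2.27. Lyz2, lysozyme of macrophages and neutrophils, was at 365, 124, 71.4, 78.4, 311, 398, 19.5 and 249 CPM in tags 1 to 8, lowest in tag 7. Irf8, a factor of monocyte and dendritic progenitors, was at 144 CPM in tag 5 and 39.9 in tag 7. Cells past 0.5% for the monocyte list numbered 47 in tag 5 and 2 in tag 7, but 30 of the 47 were also past it for the neutrophil list, and the 47 drew a median of 24.9% of their UMIs from that list and 0.986% from the monocyte list. Only 15 of the 47 were past it for neither granule list. Among cells without an Il2ra UMI the log2 ratios of Irf8 and Ccr2 were -0.16 and -0.27, the other direction. In both tags these cells included most of those past 0.5% for the dendritic list, given below. The receptor genes Csf2rb and Csf2ra, for the cytokine GM-CSF, were at 31.3 and 18.1 CPM in tag 5 and 7.52 and 8.07 in tag 7.

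MHC class II genes were higher in tag 5 in a larger share of its cells. The dendritic list had 10 genes, of which 5 passed the floor and all 5 were at least 2-fold higher in tag 5 (H2-Aa, H2-Ab1, H2-Eb1, Cd74 and Ciita), with a median log2 ratio of 1.75. All 5 are genes of antigen presentation, and the subset markers Xcr1, Siglech, Cd209a and Zbtb46 were at most 2.04 CPM in tags 5 and 7. Cd74, the invariant chain of class II molecules, was at 139, 181, 793, 779, 1088, 1039.8, 328 and 765 CPM in tags 1 to 8. Tags 1, 2 and 7 were the 3 lowest for Cd74, and tag 5 was 3.32 times tag 7 (3.24 to 3.40). Of tag 5 cells 164 (16.6%, 14.3 to 19.1) passed 0.5% for this list, against 45 of tag 7 (4.42%, 3.25 to 5.88). After thinning, Cd74 had a UMI in 53.3% of tag 5 cells and 10.8% of tag 7 cells. The stromal-marker cells had 42.9%, more than tag 7, so they give no background level for this gene.

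The MHC class II difference was larger outside the cells with the most class II RNA. Without the cells past 0.5% for any other-lineage list, which were chosen partly on these genes, Cd74 was at 403 CPM in tag 5 and 27.5 in tag 7, a ratio of 14.6 (13.4 to 16.0). Among cells with an Il2ra UMI it was at 328 CPM in tag 5 and 34.5 in tag 7. Among cells without one it was at 1616 CPM in tag 5 and 2106 in tag 7, the other direction, within 2-fold. That set held 619 cells of tag 5 and 174 of tag 7, and most cells past 0.5% for the dendritic list fell in it. Only 7.93% of the 164 such cells of tag 5 and 6.67% of the 45 of tag 7 had an Il2ra UMI. Ciita, the master regulator of class II transcription, followed the first of these patterns with 17.0 and 1.61 CPM outside the other-lineage cells.

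Genes of the interferon response were higher in tag 5. Of 15 listed, 11 passed the floor, 9 were at least 2-fold higher in tag 5 and 0 lower, and the median log2 ratio was 1.68. Isg15, Ifit1, Irf7, Oasl2 and Gbp2 were among them. Gbp2, an interferon-induced guanylate-binding protein, was at 6.33, 10.6, 113, 61.3, 139.8, 197, 21.0 and 31.8 CPM in tags 1 to 8. The tags formed a high set (3, 4, 5 and 6) and a low set (1, 2, 7 and 8) for Gbp2, and tag 5 was 6.65 times tag 7 (6.05 to 7.31). Isg15, a ubiquitin-like modifier, was at 34.3, 42.1, 102, 119, 135, 164, 42.0 and 43.1 CPM, again with these 4 tags high. Iigp1, an interferon-inducible GTPase named for its ratio of 7.17, was at 106 CPM in tag 5 and 14.8 in tag 7.

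Unlike the secondary granule genes, this response was spread over the cells. After thinning, Gbp2 had a UMI in 39.8% of tag 5 cells and 11.4% of tag 7 cells. The stromal-marker cells had 52.1% for Gbp2, above both tags. The median cell of tag 5 had 5 UMIs of the list in 5000 and that of tag 7 had 2. Gbp2 was 5.11 times higher in tag 5 without the other-lineage cells, 4.37 times higher among cells with an Il2ra UMI and 5.66 times higher among cells without one. The receptor gene Ifngr1 was at 71.4 CPM in tag 5 and 163 in tag 7. Ifng itself, below the floor, was at 20.4 CPM in tag 5 and 0.127 in tag 7, and 99.7% of its tag 5 UMIs were in 5 cells. Stromal markers were also higher in tag 5 than in tag 7, but did not follow this group over the 8 tags. The stromal list summed to 449, 908, 245, 464, 534, 827, 174 and 432 CPM in tags 1 to 8. Cells past 0.5% for the stromal list were 24 (2.43%) in tag 5 and 7 (0.688%) in tag 7. Both sets are left out in the 5.11-fold ratio of Gbp2 above, while the part of free stromal RNA was not tested.

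**Figure D4:**
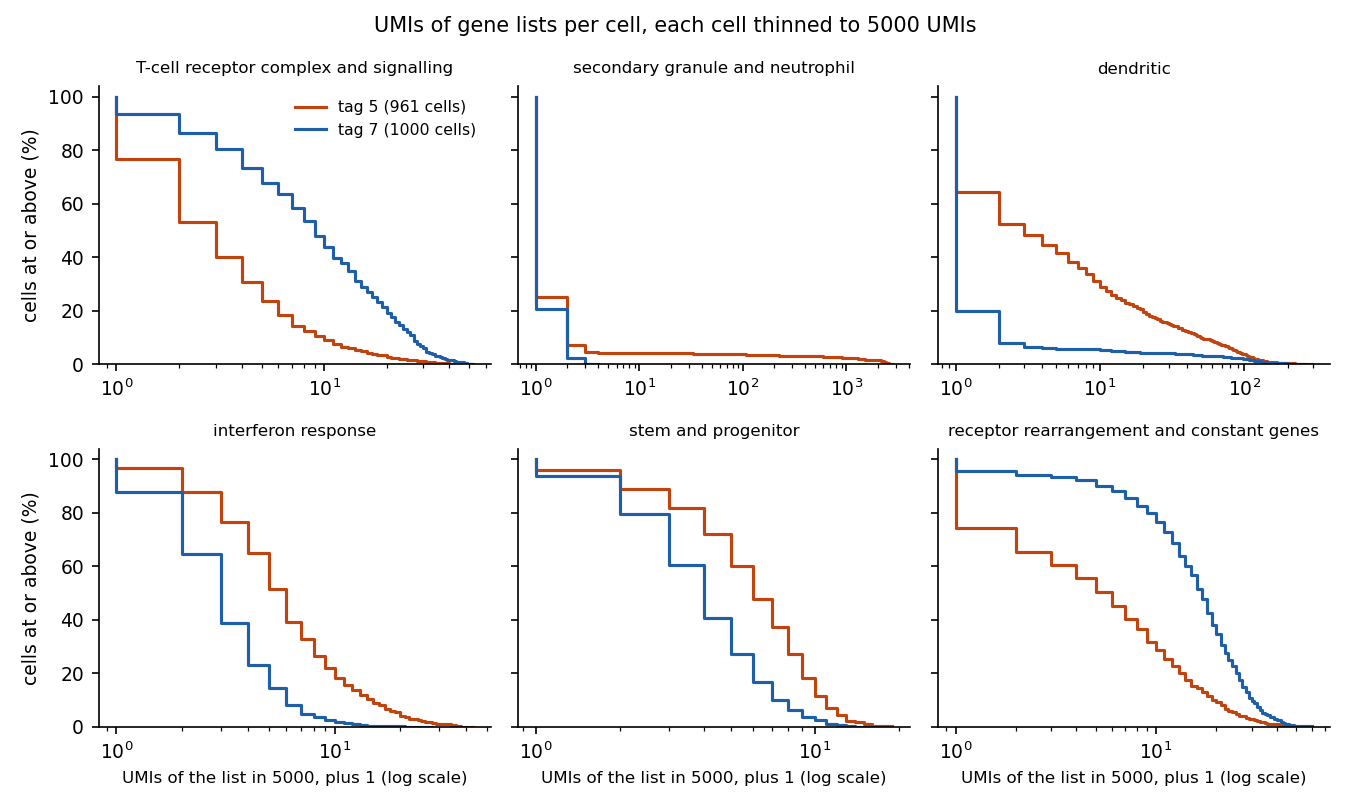
Share of cells (vertical, percent) at or above a number of UMIs of a list (horizontal, plus 1, log scale), with each of 961 cells of tag 5 and 1000 of tag 7 thinned to 5000 UMIs. The receptor, progenitor and interferon curves are shifted over most cells, whereas the neutrophil curves differ in a tail of few cells.

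The promoters of the interferon-response genes were searched for the core of the interferon-stimulated element, GAAANNGAA on either strand. Promoters were the 250 bases before and 50 after the start in RefSeq's annotation of build GRCm38.p6, and 6 of the 9 genes were matched by symbol. The element was found in 3 of the 6 (Gbp2, Ifit1 and Isg15) and in 8.56% of all 32851 promoters. For sets of genes, a gene counted when any of its promoters matched, so the share of all promoters is in another unit. Among genes past the floor it was found in 9.05% of 5646 genes. It was found in 19.7% of 203 genes at least 2-fold higher in tag 5 and in 11.1% of 81 genes lower. The gamma-activated site TTCNNNGAA was in 0 of the 6 and in 8.30% of all promoters, and a Runx motif, TGTGGT, was in 2 of the 6 (Gbp2 and Oasl2) and in 16.8% of all. The gamma-activated site was in 14.3% of the 203 higher genes, 11.1% of the 81 lower and 8.08% of genes past the floor. For the Runx motif these shares were 21.7%, 22.2% and 14.7%. A share above that of genes past the floor was therefore not particular to the interferon element. A match says only that the letters are there. The 3 promoters with the element are shown to place it before the start site, 5′ to 3′ on the gene's strand, with capitals for the matched letters, which overlap where matches overlap. They lie at chr4:156200769-156201068 on the minus strand for Isg15, chr3:142620413-142620712 on the plus strand for Gbp2 and chr19:34640639-34640938 on the plus strand for Ifit1.
Isg15: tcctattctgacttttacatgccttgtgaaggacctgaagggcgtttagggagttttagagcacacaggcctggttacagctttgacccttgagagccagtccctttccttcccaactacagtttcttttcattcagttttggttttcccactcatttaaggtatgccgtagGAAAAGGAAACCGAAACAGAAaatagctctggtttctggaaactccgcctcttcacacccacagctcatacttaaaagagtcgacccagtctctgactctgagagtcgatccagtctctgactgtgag
Gbp2: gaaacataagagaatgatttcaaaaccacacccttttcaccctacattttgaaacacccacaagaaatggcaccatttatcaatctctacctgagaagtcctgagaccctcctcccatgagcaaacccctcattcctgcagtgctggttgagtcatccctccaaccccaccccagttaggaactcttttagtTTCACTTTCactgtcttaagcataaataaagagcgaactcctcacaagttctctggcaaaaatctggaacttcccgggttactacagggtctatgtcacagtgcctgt
Ifit1: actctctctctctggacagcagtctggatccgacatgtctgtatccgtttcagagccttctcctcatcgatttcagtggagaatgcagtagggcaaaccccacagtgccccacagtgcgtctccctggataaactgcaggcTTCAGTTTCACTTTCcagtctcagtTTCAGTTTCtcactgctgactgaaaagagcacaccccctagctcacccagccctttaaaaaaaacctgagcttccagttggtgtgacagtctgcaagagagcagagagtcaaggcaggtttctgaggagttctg
Isg15 and Ifit1 held 3 matches each and Gbp2 held 1. Their levels in tag 5 were 3.20, 3.87 and 6.65 times those in tag 7 for Isg15, Ifit1 and Gbp2.

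Some differences rested in large part on a handful of cells. Prss34, a basophil protease, was at 93.3 CPM in tag 5 and 0.892 in tag 7, and 79.1% of its tag 5 UMIs were in 5 cells. Without the 5 highest cells of each tag it was still higher in tag 5, at 19.6 CPM against 0.684. Mcpt8, another basophil protease, was at 151 and 24.6 CPM, and at 55.5 in tag 5 without its 5 highest cells. Prg2, the eosinophil major basic protein, was at 71.3 CPM in tag 5 and 0.382 in tag 7, and 99.5% of its tag 5 UMIs were in 5 cells. Cells past 0.5% for the mast and basophil list were 8 in tag 5 and 0 in tag 7, where 3 cells would be a share of 0.295% and the exact interval reaches 0.362%. Without the other-lineage cells Prss34 had a log2 ratio of -0.35. Of the 9 genes of this list 3 passed the floor, and the third, the mast-cell carboxypeptidase Cpa3, was at least 2-fold lower in tag 5, at 94.7 CPM against 225. Cpa3 was not confined to few cells: after thinning it had a UMI in 24.1% of tag 5 and 52.9% of tag 7 cells, with 3.79% in the stromal-marker cells.

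The B-lineage list went the other way. Of 10 genes 4 passed and 2, the surrogate light chain gene Vpreb1 and its relative Vpreb3, were at least 2-fold lower in tag 5, with a median log2 ratio of -1.18. Vpreb1 was at 2.27, 15.7, 2.62, 15.5, 9.31, 7.15, 41.0 and 34.4 CPM in tags 1 to 8, highest in tags 7 and 8. Cells past 0.5% for the list were 26 (2.56%) in tag 7 and 2 (0.202%) in tag 5. Without other-lineage cells, Vpreb1 was at 11.9 CPM in tag 5 and 8.04 in tag 7. The erythroid list had 9 genes, 2 past the floor and 0 past 2-fold. It was carried by the globin gene Hbb-bt, at 1582 CPM in tag 5 and 1693 in tag 7, while Klf1, an erythroid transcription factor gene, was at 0.280 and 0.297 CPM. Of 9 stromal genes 7 passed, and all 7 (Col1a1, Col1a2, Col3a1, Sparc, Bgn, Fn1 and Cxcl12) were at least 2-fold higher in tag 5, with a median log2 ratio of 1.66. Col1a1 was at 57.4, 116, 26.1, 47.2, 69.8, 111, 24.8 and 49.5 CPM in tags 1 to 8, and was at 46.8 in tag 5 and 3.73 in tag 7 without the 5 highest cells of each.

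In all, 338 cells of tag 5 (34.2%, 31.3 to 37.3) and 159 of tag 7 (15.6%, 13.5 to 18.0) were past 0.5% for at least 1 of the 8 other-lineage lists. Without the erythroid list the shares were 25.3% and 7.28%. Leaving all these cells out kept 650 cells of tag 5 and 858 of tag 7. Over the same 7084 genes, 229 were then at least 2-fold higher in tag 5, of which 207 were among the 277, and 111 were lower, of which 96 were among the 109. The T-cell receptor and progenitor lists had medians of -1.40 and 1.25, in place of -1.51 and 0.97. With the erythroid list not used to leave out cells, these 2 medians were -1.28 and 1.08. The lists by which cells were left out did not all move. The neutrophil median went from 6.74 to -0.11, that of primary granules from 3.99 to 0.51, that of mast cells and basophils from 2.62 to -0.35 and that of the dendritic list from 1.75 to 3.85. The B-lineage median turned from -1.18 to 1.13, and the monocyte median was 2.27 in both sets. The stromal median was 1.66 before and 1.73 after, with 6 of 7 genes still at least 2-fold higher in tag 5. Cd3g was at 111 and 745 CPM in tags 5 and 7 in these cells, Lmo2 at 75.6 and 8.95.

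Among cells with an Il2ra UMI, 369 of tag 5 and 843 of tag 7, the T-lineage differences were smaller, and among cells without one they were larger for Cd3g, Bcl11b and Tcf7. With an Il2ra UMI, 42 genes were at least 2-fold lower in tag 5 (40 of them among the 109) and 204 higher (192 of them among the 277). Cd3g was at 185 CPM in tag 5 and 726 in tag 7, a ratio of 3.93 in place of 7.99. Bcl11b was at 23.6 and 71.3 CPM, a ratio of 3.02 in place of 6.27. Tcf7 was at 124 and 171 CPM, within 2-fold. Lmo2 was at 34.6 and 5.59 CPM, still 6.18 times higher in tag 5. Transcripts of other lineages remained in these cells with an Il2ra UMI. All 7 neutrophil genes past the floor were at least 2-fold higher in tag 5, with a median log2 ratio of 6.01. The mature T genes Trac and Cd8a were at 10.8 and 12.9 CPM in tag 5, against 0.891 and 0.446 in tag 7. The split by Il2ra therefore did not leave T progenitors alone on the tag 5 side. Without an Il2ra UMI, the ratio of tag 7 to tag 5 was 11.2 for Cd3g, 21.9 for Bcl11b, at 15.6 and 0.712 CPM, and 2.70 for Tcf7. The progenitor list had a median log2 ratio of 0.04 there, with 2 genes at least 2-fold higher and 1 lower, and Ccr7 and Ccnd1, higher in tag 5 over all cells, had log2 ratios of -0.50 and -0.42. A cell with fewer UMIs shows an Il2ra UMI less readily, and the split depends on the depths given above.

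Natural killer and cytotoxic genes were divided. Of 20 listed 11 passed, and 4 were at least 2-fold higher in tag 5 (Tyrobp, Klrk1, Gzmb and Gzmc) and 0 lower, with a median log2 ratio of 0.31. These counts depended on the cells: 6 were higher and 0 lower among cells with an Il2ra UMI, and 0 higher and 6 lower among cells without one, where Klrk1, Gzmb and Gzmc had log2 ratios of -0.88, -0.98 and -1.02. With HTODemux, another way to assign tags, Gzmc had a log2 ratio of -0.33. Tyrobp, a signalling adaptor of natural killer and myeloid cells, was at 747, 869, 545, 506, 846, 879, 251 and 556 CPM in tags 1 to 8, lowest in tag 7. Gzma, a granzyme, was at 433, 1028, 1033, 1844, 1142, 298, 2262 and 1677 CPM, highest in tag 7 and 1.98 times its level in tag 5. After thinning, Gzma had a UMI in 37.6% of tag 5 cells and 82.0% of tag 7 cells, with 12.8% in the stromal-marker cells. Of 10 innate lymphoid transcription factors 4 passed, 1 of them, Maf, was at least 2-fold higher in tag 5, and the median log2 ratio was 0.83. Zbtb16, which encodes the innate lymphoid factor PLZF, was below the floor, with a UMI in 1.77% of tag 5 and 2.80% of tag 7 thinned cells, and in 0.728% to 2.08% and 1.6% to 3.2% over the 20 other draws.

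Survival and cytokine receptor genes differed gene by gene. Of 12 Bcl2 family genes 11 passed, 2 were at least 2-fold higher in tag 5 and 1 lower, with a median log2 ratio of 0.51. The lower gene was Bcl2, at 59.4, 97.2, 92.3, 169, 83.0, 45.5, 229 and 114 CPM in tags 1 to 8. Tag 7 was the highest, at 2.76 times tag 5 (2.63 to 2.89). The higher genes, Bcl2a1b and Bcl2a1d, are near-identical copies whose reads could be divided. Bcl2a1b was at 3.85, 3.00, 12.5, 30.3, 56.3, 119, 7.78 and 80.7 CPM, with tags 5, 6 and 8 above the other 5. Of 13 cytokine receptors 9 passed, 2 were higher (Csf2rb and Csf2ra) and 2 lower (Il7r and Ifngr1), with a median log2 ratio of 0.05. Il7r, the receptor for the IL-7 in the medium, was at 5.66, 4.91, 14.5, 14.0, 15.9, 16.6, 45.5 and 44.9 CPM, with tags 7 and 8 above the other 6. Of 14 homing and adhesion genes 8 passed, and 2 (the chemokine receptor Ccr7 and the adhesion receptor Cd44) were higher in tag 5, with a median log2 ratio of 0.07. Of 8 Gimap genes, a family of lymphocyte GTPases, 4 passed and 3 (Gimap1, Gimap5 and Gimap6) were lower, with a median log2 ratio of -1.25.

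Cell cycle, glycolysis, Notch and Runx genes stayed within 2-fold almost throughout. All 18 S-phase genes and all 18 genes of G2 and mitosis passed the floor and 0 were past 2-fold, with median log2 ratios of -0.10 and -0.25. Of 10 D cyclins and Cdk inhibitors 9 passed and 1, cyclin D1 (Ccnd1), was higher in tag 5, at 49.6 CPM against 19.3. The median log2 ratio of that list was -0.14. Of 15 glycolysis genes 13 passed and 0 were past 2-fold, with a median log2 ratio of 0.25. Of 12 Notch receptors, ligands and targets 5 passed and 0 were past 2-fold. Their median log2 ratio was 0.36, and the receptor gene Notch1 was at 42.4 and 56.4 CPM in tags 5 and 7. The 4 Runx family genes had a median log2 ratio of 0.03. Runx1 was at 57.5, 33.7, 52.9, 39.5, 58.8, 102, 86.7 and 121 CPM in tags 1 to 8, which places tags 6, 7 and 8 above the other 5. Runx3 was at 127 CPM in both tags, with a ratio of 0.999 (0.952 to 1.05), and the shared partner gene Cbfb was at 38.6 and 37.2 CPM in tags 5 and 7.

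**Figure D5:**
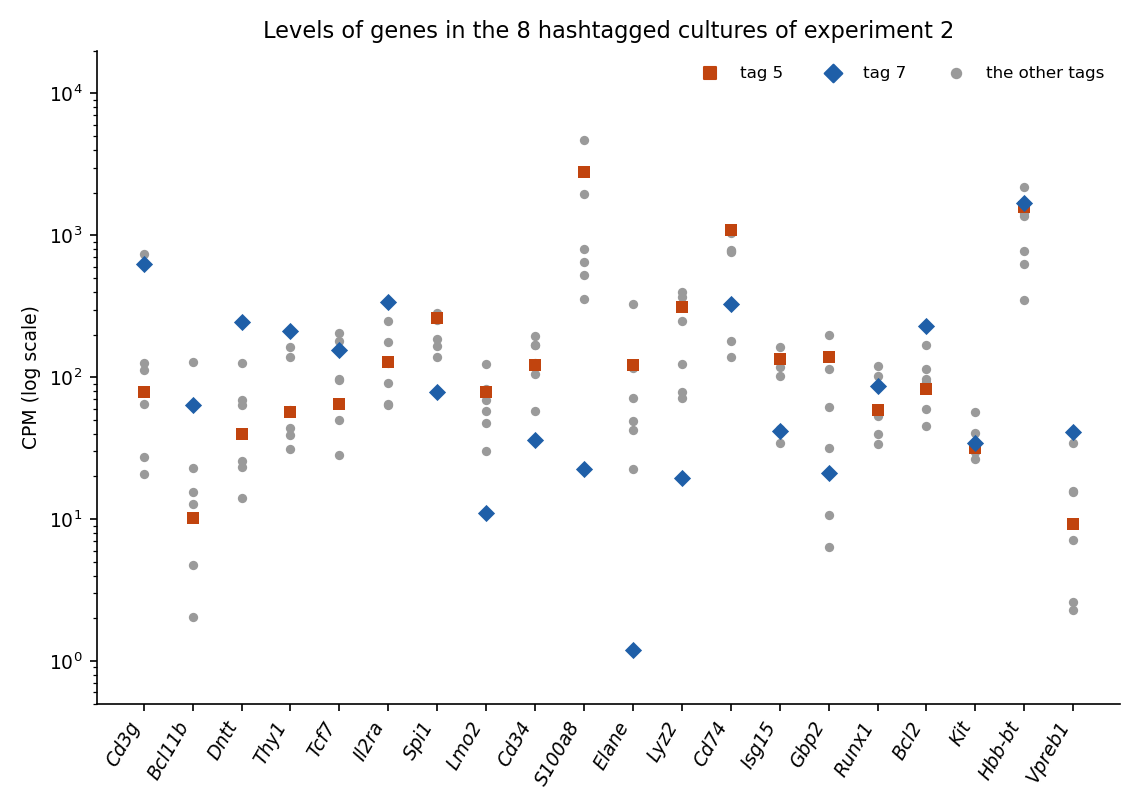
Level of 20 genes (vertical, CPM on a log scale) in the 8 tags of experiment 2, 1 point a tag, with no error bars because each tag is 1 culture. Red squares, tag 5; blue diamonds, tag 7; grey circles, the other 6. Tag 7 is lowest for Lmo2, Spi1, S100a8 and Elane and highest for Dntt, Thy1, Il2ra and Bcl2, while tag 5 lies mostly among the other tags.

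Most of the genes that differ between the tags were genes in which tag 7 was at the end of the 8 tags. Of the 277 genes higher in tag 5, tag 7 was the lowest of the 8 tags in 202 and tag 5 the highest in 32. Of the 109 lower, tag 7 was the highest in 70 and tag 5 the lowest in 2. These counts follow in part from having chosen genes by this ratio.

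The same genes were set beside 2 other pairs of tags that share no culture with tags 5 and 7 but come from the same droplet library, and which no label calls pairs. Tag 8 was at least 2-fold higher than tag 6 for 82 genes (1.16%) and lower for 111 (1.57%). Of the 277 genes higher in tag 5 than in tag 7, 100 (36.1%) were lower in tag 8 than in tag 6, which is 90.1% of those 111, and 1 was higher. Of the 109 genes lower in tag 5, 63 (57.8%) were higher in tag 8, which is 76.8% of those 82, and 0 were lower. Tag 3 was at least 2-fold higher than tag 1 for 121 genes (1.71%) and lower for 32 (0.452%). Of the 277, 42 (15.2%) were higher in tag 3, which is 34.7% of those 121, and 30 (10.8%) were lower, which is 93.8% of those 32. Of the 109, 33 (30.3%) were higher in tag 3, which is 27.3% of those 121, and 0 were lower. The lists separated here: Gbp2 was 6.19 times higher in tag 6 than in tag 8 and 17.9 times higher in tag 3 than in tag 1. Bcl11b was 4.82 times higher in tag 8 than in tag 6 and 6.29 times higher in tag 3 than in tag 1.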

How the data were processed

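Each experiment had 1 mRNA and 1 hashtag library. The authors deposited raw counts of UMIs per gene and cell, made with Cell Ranger 3.0.0 per the submitters' processing notes, which name mm10 and GRCm38; the deposited hashtag counts per cell come without conditions. Of 31053 gene IDs, paired with symbols in the files, 30934 were in the gene name table. The cell filter asked for 500 genes or more and for mitochondrial UMIs below 10%. UMIs were summed per tag and scaled to CPM with Python 3.11.15, numpy 2.4.6, pandas 2.3.3 and scipy 1.17.1. A ratio was given where the lower tag had at least 10 UMIs. Intervals were exact (Poisson for CPM, conditional binomial for ratios, Clopper-Pearson for shares) at 95%. With 1 culture a side no model was fitted and no p-value is given. The ratio and its interval were tested on simulated Poisson counts, which hold no spread between cells.

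The members, the 26 lists (312 genes) and the rules were chosen with earlier results of these data known. The genes named were the 15 highest and 15 lowest ratios among genes past the floor of 10 CPM with at least 50 CPM in the higher tag, list members past 2-fold, and up to 4 others per list. Flt3, outside this rule, was named after its values were seen. Cells were not clustered, and doublets were removed only as cells without 1 clear tag.

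Alternatives were stricter tag calls, HTODemux (Seurat 5.3.0), other cell filters, TMM scaling (edgeR 4.0.16), DESeq2 1.42.0 size factors, other floors, means over cells, thinning and subsets of cells.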

Additional observations from a re-analysis of the deposited data

Results flagged for a closer look

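Of the 30 genes named by their ratio, 2 had tag 5 or tag 7 far from the other 7 tags. Genes with another tag apart were not counted, such as Prss34, at 355 CPM in tag 4 and 93.3 in tag 5. Gm4632 was at 118 CPM in tag 7, and the next highest tag was at 57.1. Prg2 was at most 4.58 CPM outside tags 5 and 6, so it passed the floor of 10 CPM on the mean only through its high tags. In tag 5, 5 cells held 99.5% of its UMIs. Its level was 71.3 CPM in tag 5, and the next highest tag was at 20.8. A gap of this size occurs by chance in about 1 in 20 groups of replicates. The 8 tags are not replicates of a group, and the 30 genes were chosen for a difference between 2 of them.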

How the results depend on the processing

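No paired analysis was possible because every label gives replicate 1 and each side is 1 culture, so no replicate could be left out either. Stricter tag calls, HTODemux, both cell filters, TMM, DESeq2 size factors, means over cells, thinning and leaving out the 5% deepest cells moved the counts of 277 and 109 genes by less than 1.5 times, and the scalings shifted the median of all genes by under 0.1 (log2). The floor set the counts: 76 and 29 genes at a floor of 50 CPM, 477 higher at 5 CPM, and 1724 and 650 with 10 UMIs in all as the only limit. With the floor applied anew, 150 genes were higher without other-lineage cells, and 132 higher and 41 lower among cells with an Il2ra UMI. Chosen after seeing the data, cells without an Il2ra UMI gave 128 higher and leaving out other-lineage cells without use of the erythroid list gave 132. Other-lineage cells were 66.4% of tag 5 and 37.1% of tag 7 at 0.2% of UMIs, 19.4% and 6.98% at 1%, and 25.3% and 7.28% without the erythroid list. The count of 5 of 8 staging genes higher in tag 7 was 5 or 6 under the planned settings and over 20 other draws at 5000 UMIs, and 4 to 6 over 20 draws at 3000; these draws were added after seeing the data. Of 103 listed genes past 2-fold, 95 stayed so under stricter tag calls, 96 with HTODemux, 82 without other-lineage cells, 76 among cells with an Il2ra UMI and 60 among cells without one.

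Directions turned mainly when cells were left out. HTODemux calls gave a log2 ratio of -0.33 for Gzmc. Without other-lineage cells the log2 ratio was -0.11 for S100a9, -0.17 for Lcn2, -0.35 for Prss34, -0.52 for Camp, -0.37 for Ltf, -0.26 for Mpo, 0.57 for Vpreb1 and 1.37 for Vpreb3. Without use of the erythroid list these were -0.071, -0.32, -0.37, -0.38, -0.30, -0.69, 0.47 and 1.37, with -0.020 for S100a8 and -0.29 for Cebpe. Cells with an Il2ra UMI gave -0.21 for Prss34. Cells without one gave -0.88 for Klrk1, -0.98 for Gzmb, -1.02 for Gzmc, -0.27 for Ccr2, -0.16 for Irf8, -0.36 for H2-Aa, -0.55 for H2-Ab1, -0.29 for H2-Eb1, -0.38 for Cd74, -3.06 for Cd8a, -0.50 for Ccr7 and -0.42 for Ccnd1. The cell sets hold different and fewer cells; beyond that the cause was not tested.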

Other observations

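Trac, Cd8b1 and Cd8a, which mark mature T cells, were lower in both tags than in tag 4, and Cd4 was at most 0.187 CPM in every tag. Between the 2 tags these genes were higher in tag 5, against the direction of the T-cell receptor list: the 4 summed to 15.8 CPM in tag 5 and 3.14 in tag 7. Cd8b1 was at 4.86 CPM in tag 5 and 0.127 in tag 7, and 87.1% of its tag 5 UMIs were in 5 cells. Of these 4 genes only Cd8a passed the floor. Cd8a was at 1.28, 0.247, 12.7, 42.2, 6.09, 8.38, 2.00 and 11.8 CPM in tags 1 to 8, and 76.4% of its UMIs in tag 5 and 87.2% in tag 7 were in 5 cells. Rag1, a recombinase gene below the floor, was at 1.47 CPM in tag 5 and 10.5 in tag 7, a ratio of 7.14 (interval 5.13 to 10.2). It was at 0.379, 1.02, 1.24, 9.68, 2.69 and 14.7 CPM in tags 1, 2, 3, 4, 6 and 8.

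Cells past 0.5% for the erythroid list, most of whose UMIs were of Hbb-bt, had more Kit than the other cells of their tag. In tag 5 the 89 such cells had Il2ra at 189 CPM and Kit at 55.9 CPM, against 122 and 29.3 CPM in the other cells of the tag. Il2ra went the other way in tag 7, where the 86 such cells had it at 213 CPM and Kit at 58.2 CPM, against 356 and 31.5 CPM in the other cells. Cd3g was low in these cells in both tags, at 2.62 CPM against 87.1 in tag 5 and 8.92 against 702 in tag 7.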
